A study of Nicotiana tabacum with 9 samples.

Results

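Chloroplastic cysteine synthase (Nitab4.5_0000013g0360), the mitochondrial L-3-cyanoalanine synthase, also annotated as cysteine synthase 2 (Nitab4.5_0000583g0180, called cyanoalanine synthase here) and chloroplastic thiosulfate sulfurtransferase 16 (Nitab4.5_0001696g0140, called the sulfurtransferase here) were followed across 3 light intensities. They were chosen by gene identifier, for their annotated function, and are 3 of the 123 genes in the deposited expression table. All 3 passed the filter on low counts, as did the other genes of the table. The plants were seedlings of the cigar tobacco cultivar H382 (Nicotiana tabacum, an allotetraploid species), and RNA was taken from leaf. Groups of 3 libraries each came from plants under 50, 100 and 200 µmol m-2 s-1, 9 libraries in all, and are called light 50, light 100 and light 200. The design text calls the libraries of a group biological replicates and does not say what separated them, so the p-values measure the spread between these libraries. The labels do not say how long the plants stood under each light.

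Cysteine synthase, also known as O-acetylserine (thiol) lyase, joins sulfide to O-acetylserine and so closes the assimilation of sulfate into cysteine, and plants keep forms of it in the chloroplast, the cytosol and the mitochondrion. Cyanoalanine synthase belongs to the same protein family but favours another reaction, in which cyanide replaces the thiol group of cysteine and sulfide is set free. Cyanide arises in plant cells when ethylene is made from 1-aminocyclopropane-1-carboxylate. Thiosulfate sulfurtransferases carry a rhodanese domain and move a sulfur atom from a donor such as thiosulfate to an acceptor, which in the classical test-tube reaction is cyanide.

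The transcripts of all 3 enzymes were lower at both brighter intensities than at light 50. With TMM scaling, computed from the 123 genes alone, the signs stayed. None of the 3 then passed the test at light 100 against light 50. Nor did cysteine synthase pass at light 200 against light 50 with that scaling. Cysteine synthase was lower at light 100 than at light 50 and about level between light 200 and light 100. Cyanoalanine synthase was lower at each higher intensity, with no overlap between any of the groups. The sulfurtransferase had the largest fitted changes of the 3 between either brighter light and light 50. It also had the widest scatter, which came to a large extent from 1 library at light 200. Its ratio to either other gene did not pass an exact permutation test across the light groups. A difference between the steps of light was shown for none of the 3. Fewer cells of a type and less RNA per cell cannot be told apart in such bulk leaf samples.

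The files place the genes on 3 different chromosomes, named as the files name them, in a genome build that the sources used here do not give. Cysteine synthase lies on the plus strand of Nt15 from 68784837 to 68790661, a span of 5825 bases with a coding length of 1164 bases, or 387 residues. Cyanoalanine synthase lies on the plus strand of Nt19 from 96394531 to 96399644, spans 5114 bases and has a coding length of 1062 bases, or 353 residues. The sulfurtransferase is the smallest, on the minus strand of Nt17 from 202729575 to 202731104, with a span of 1530 bases, a coding length of 558 bases and 185 residues. The files link cysteine synthase and cyanoalanine synthase to potato proteins of those names and the sulfurtransferase to Arabidopsis STR16. Which exons the reads fell in is not recorded. An allotetraploid carries near-identical copies of many genes and the library kit does not mark strand, so reads of a second copy or of an antisense partner cannot be told apart from those of the gene named.

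The 9 libraries held between 12395758 and 16603534 reads. The 20 genes of the table that mark leaf mesophyll (chlorophyll a-b binding proteins, photosystem and oxygen-evolving proteins and a Rubisco activase) summed to between 52481 and 62224 CPM at light 50. CPM are counts scaled to the effective library size that the authors' size factors give. Their sum lay between 42970 and 48015 CPM at light 100 and between 27903 and 35204 CPM at light 200. The samples were thus rich in leaf transcripts in every group, and this sum was lower in brighter light. A beta-tubulin, the single gene on the list for dividing tissue, lay between 79.1 and 126.7 CPM at light 50, between 41.6 and 51.8 CPM at light 100 and between 28.6 and 38.2 CPM at light 200. A lipid-transfer protein, the single gene on the trichome list, lay between 40.8 and 65.9, between 24.0 and 30.0 and between 13.5 and 17.7 CPM in the same order, while a berberine bridge enzyme-like gene, the single one on the root list, lay between 0.606 and 1.32, between 1.18 and 2.0 and between 3.98 and 7.50 CPM. No marker was at 0. These marker sums moved with light as the members did or against them, and their part in the members' differences was not tested.

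Cysteine synthase (Nitab4.5_0000013g0360) had 491.1, 549.9 and 492.7 CPM in the libraries at light 50, 346.4, 355.2 and 357.2 CPM at light 100 and 288.7, 375.3 and 355.4 CPM at light 200. Every library at light 100 or light 200 lay below every library at light 50, and the libraries at light 200 lay on both sides of those at light 100. The group means were 511.2 ± 33.5, 352.9 ± 5.75 and 339.8 ± 45.4 CPM (SD, n = 3 each). The libraries at light 100 stood closer together for this gene than for nearly all others, with an SD of 0.02 on the log2 scale that ranked 122 of 123 from the widest. Counts of 4504 to 8164 reads gave a counting error of at most 1.49%, which is about the spread of the libraries at light 100 and well below that of the other groups.

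Cyanoalanine synthase (Nitab4.5_0000583g0180) had 99.4, 111.7 and 79.6 CPM at light 50, 69.0, 57.3 and 54.1 CPM at light 100 and 27.6, 34.5 and 24.8 CPM at light 200. The 3 groups followed one another without overlap, the darkest highest and the brightest lowest. The means were 96.9 ± 16.2, 60.1 ± 7.85 and 29.0 ± 4.99 CPM (SD, n = 3 each). The counts behind them, 431 to 1658 reads, are the lowest of the 3 genes and carry a counting error of at most 4.82%. Its pooled SD within groups, 0.227 on the log2 scale, was close to the median of 0.202 over all 123 genes.

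The sulfurtransferase (Nitab4.5_0001696g0140) had 721.7, 513.6 and 321.6 CPM at light 50, 192.1, 138.0 and 229.4 CPM at light 100 and 46.7, 67.1 and 206.0 CPM at light 200. Every library at light 50 lay above every library of the other 2 groups, whereas replicate 3 at light 200 fell among those at light 100. The means were 518.9 ± 200.1, 186.5 ± 45.9 and 106.6 ± 86.7 CPM (SD, n = 3 each). Its pooled SD within groups, 0.759 on the log2 scale, was the widest of the 123 genes. The highest library was 2.24-fold above the lowest at light 50, 1.66-fold at light 100 and 4.42-fold at light 200. Counting error was at most 3.71%, with 728 to 8200 reads, far below that spread.

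**Figure D1:**
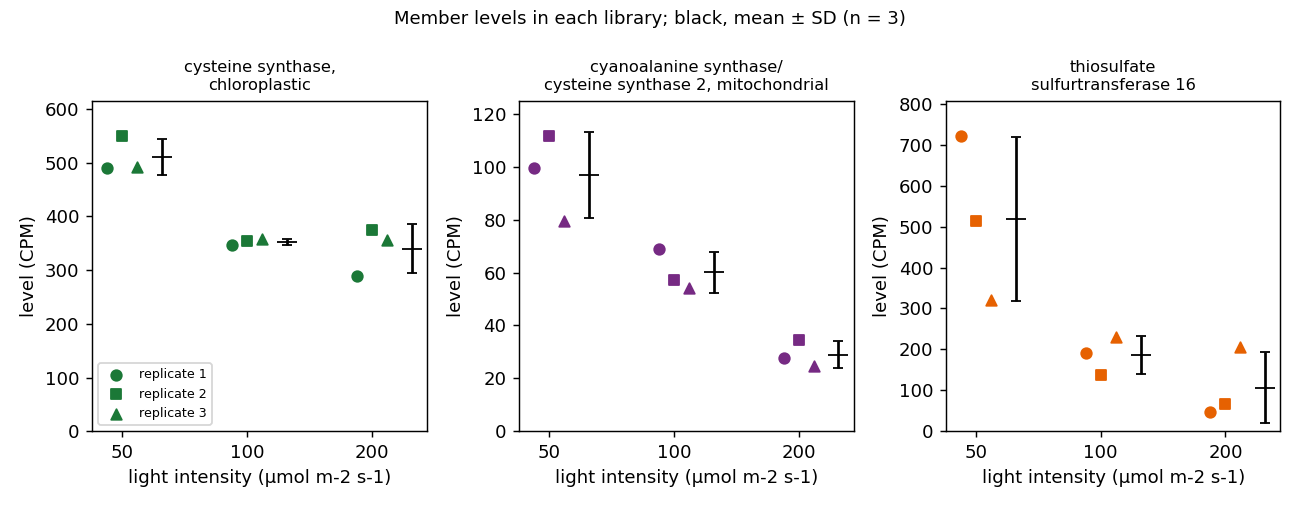
Level in CPM (vertical axes, from 0) of cysteine synthase, cyanoalanine synthase and the sulfurtransferase in each library, by light intensity in µmol m-2 s-1 (horizontal axes). Points are libraries, with a symbol for each replicate number, and black bars give the mean ± SD of 3 libraries. The cyanoalanine synthase groups do not overlap, cysteine synthase is about level between 200 and 100, and replicate 3 of the sulfurtransferase at 200 stands at 206.0 CPM, against 46.7 and 67.1 CPM for the other 2.

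Replicate 3 at light 200 set the sulfurtransferase apart. Its level there was 3.68-fold (1.88 on the log2 scale) above the mean log2 level of the other 2 libraries of the group, the largest such gap of the 123 genes. The next were the CSC1-like membrane protein ERD4 at 1.32, an alpha/beta-hydrolase at 1.26, the thioredoxin-like protein CXXS1 at 0.70 and the protease Do-like 8 at 0.63. The median over the 123 genes of the table was -0.23, so these genes as a set were not raised in that library. The 4 genes named after the sulfurtransferase were picked for this gap after their values were seen. Because a result at light 200 can rest on that library, the sulfurtransferase is given with and without it below. The library was singled out by its values for this gene, so p-values without it are descriptions and not tests.

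Levels of different genes were compared per length, as the authors' FPKM values (fragments scaled by coding length and library total). At light 50 the sulfurtransferase averaged 877.7 ± 313.5 FPKM, cysteine synthase 417.8 ± 35.3 FPKM and cyanoalanine synthase 86.7 ± 14.5 FPKM (SD, n = 3). The sulfurtransferase stood above cysteine synthase in 3 of 3 libraries there, and ranked 21 of the 123 genes from the highest, against 25 for cysteine synthase and 49 for cyanoalanine synthase. At light 100 the averages were 333.2 ± 82.9 FPKM for the sulfurtransferase, 302.0 ± 2.38 FPKM for cysteine synthase and 56.4 ± 7.97 FPKM for cyanoalanine synthase (SD, n = 3). The first 2 did not differ beyond their spread, the sulfurtransferase being the higher in 2 of 3 libraries.

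At light 200 the averages were 204.9 ± 172.4 FPKM for the sulfurtransferase, 308.7 ± 44.3 FPKM for cysteine synthase and 28.7 ± 4.42 FPKM for cyanoalanine synthase (SD, n = 3). Here the sulfurtransferase was above cysteine synthase in 1 of 3 libraries, replicate 3. The order of the means of these 2 genes was thus opposite at the ends of the light range, with overlapping values at light 200 and light 100. Cyanoalanine synthase was the lowest of the 3 in every library, and its rank among the 123 genes was 49, 72 and 96 at light 50, light 100 and light 200. The rank of cysteine synthase stayed between 25 and 30.

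The comparison of light 200 with light 50 spans the whole range of light. All 3 genes fell. By the quasi-likelihood test of edgeR, with p-values adjusted after Benjamini and Hochberg over the 123 genes, the log2 change was -0.59 ± 0.14 (SE) for cysteine synthase, with 66.5% of the transcript level left (adjusted p = 0.00118). Cyanoalanine synthase changed by -1.74 ± 0.18, leaving 29.9% (edgeR adjusted p = 2.8e-06), and the sulfurtransferase by -2.28 ± 0.48, leaving 20.6% (edgeR adjusted p = 0.000524). For each of the 3, every library at light 200 lay below every library at light 50, as it did for 52.0% of the 123 genes.

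Nothing about the 3 genes is read from those calls, because 122 of the 123 genes in the table carry the authors' mark of a change between these same groups. Of the 123 genes, 52.0% were called lower and 47.2% higher at light 200 than at light 50, and the authors' deposited table marks 52.0% as lower. As a description of size, counted from the most lowered gene, the sulfurtransferase was number 4, cyanoalanine synthase number 13 and cysteine synthase number 60. The median change was -0.58 over all 123 genes, risen ones included, and -0.95 over those called lower. Without replicate 3 at light 200 the sulfurtransferase changed by -3.19 (edgeR adjusted p = 8.8e-06). With TMM scaling, which raised the median of all genes by 0.43, cysteine synthase changed by -0.16 and was not called (edgeR adjusted p = 0.281).

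All 3 genes also fell at light 100 against light 50, where the background was 40.7% called lower and 42.3% called higher. The same light 50 libraries entered the comparison on which the table was largely chosen, so that choice can favour these calls. The log2 change was -0.53 ± 0.14 (SE) for cysteine synthase (edgeR adjusted p = 0.00578), with 69.0% left. Cyanoalanine synthase changed by -0.69 ± 0.18 (edgeR adjusted p = 0.00581), with 62.0% left. The sulfurtransferase changed by -1.48 ± 0.46 (edgeR adjusted p = 0.0132), with 36.0% left, and was number 3 of the 123 genes from the most lowered. In each case the 3 libraries at light 100 lay below the 3 at light 50, which held for 43.1% of the 123 genes. The members' median was -0.69, beside -0.54 over the genes called lower and -0.18 over all genes, risen ones included.

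These calls depend on the scaling. The TMM, RLE and median-centring factors were computed from the 123 genes alone. Of these, 122 carry the authors' mark of a change between light 200 and light 50. The genes that set those scales were thus themselves marked as changed. Under TMM, which moved the median of all genes up by 0.29, the changes were -0.25, -0.40 and -1.18 for cysteine synthase, cyanoalanine synthase and the sulfurtransferase, and none of the 3 was called (edgeR adjusted p = 0.128, 0.0614 and 0.0792). The split of calls over the table moved as well, to 13 lower and 58 higher under TMM and to 63 lower and 32 higher with every library centred on its median gene, against 50 lower and 52 higher with the authors' size factors. The sulfurtransferase call was also lost without replicate 1 at light 50 (log2 change -1.16, edgeR adjusted p = 0.0651). The authors' deposited table, whose adjustment covered at least 30470 genes, marks cysteine synthase (adjusted p = 0.0422) and cyanoalanine synthase (adjusted p = 0.0241) as lower but not the sulfurtransferase (adjusted p = 0.162), among 12.2% of the 123 genes marked lower in this comparison.

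At light 200 against light 100, cyanoalanine synthase passed the test and the other 2 enzymes did not. Cyanoalanine synthase fell by 1.05 on the log2 scale (SE 0.18), leaving 48.2% (edgeR adjusted p = 0.00105) and number 6 of the 123 genes from the most lowered. This is 1 of 3 members, against a background of 39.0% of genes called lower and 21.1% called higher. Its libraries at light 200 all lay below those at light 100, as did those of 41.5% of the 123 genes. The light 200 libraries also entered the comparison on which the table was largely chosen, so that choice can favour this call. Cysteine synthase changed by -0.05 ± 0.14 (SE), with overlapping libraries and 96.3% left (edgeR adjusted p = 0.715). Its sign turned under TMM (0.10), RLE (0.17) and library totals (0.03), among other settings, so no direction is given for it.

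The sulfurtransferase changed by -0.81 ± 0.46 (SE) between light 200 and light 100, leaving 57.2%, and was not called (edgeR adjusted p = 0.130). Without replicate 3 at light 200 its change was -1.71 and was called (edgeR adjusted p = 0.00224). That library decides the result, and whether it or the other 2 stand for this light intensity cannot be told apart with 3 libraries. Cyanoalanine synthase kept its call under every scaling, under DESeq2 and limma, and without any single library. Over the table, the split was 36 lower and 43 higher under TMM, 17 and 45 under RLE, 42 and 42 when library totals set the scale and 56 and 14 when each library was centred on its median gene, against 48 lower and 26 higher with the authors' size factors. In the authors' deposited table cyanoalanine synthase changed by -1.05 (adjusted p = 2.28e-06) and is among the 20.3% of genes marked lower, while cysteine synthase (adjusted p = 1) and the sulfurtransferase (adjusted p = 0.972) are not marked.

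**Figure D2:**
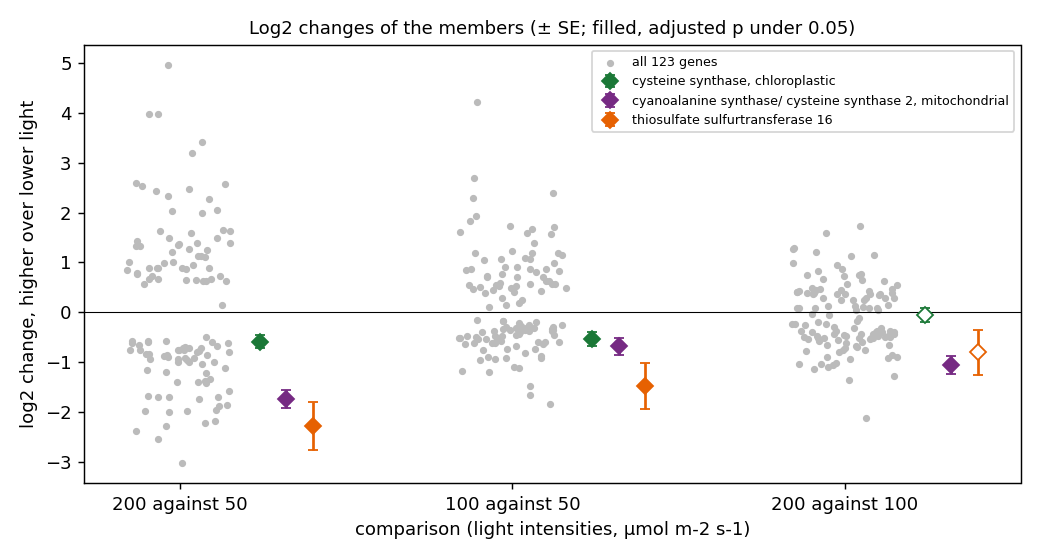
Log2 change, higher over lower light (vertical axis), of the 3 genes in each comparison of light intensities in µmol m-2 s-1 (horizontal axis), with bars of 1 SE. Grey points are all 123 genes of the table and filled symbols have an edgeR adjusted p under 0.05. All 3 genes lie below 0 at 200 against 50 and at 100 against 50, and cyanoalanine synthase alone is filled at 200 against 100, at -1.05.

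The comparisons share libraries, the first pair those at light 50 and the steps those at light 100, so the members' changes in them are not independent. Whether the 2 steps of light differed was tested directly, as the log2 change between light 200 and light 100 minus that between light 100 and light 50. The difference was 0.48 ± 0.24 (SE) for cysteine synthase (edgeR adjusted p = 0.359), -0.37 ± 0.31 for cyanoalanine synthase (edgeR adjusted p = 0.607) and 0.67 ± 0.80 for the sulfurtransferase (edgeR adjusted p = 0.791). None of the 3 was called, against 2.44% of all genes, and 0 of the 3 had an unadjusted p under 0.05 in edgeR, DESeq2 or limma. Cysteine synthase, with an unadjusted p of 0.0679 in edgeR, had one of the highest values, number 116 of 123 from the lowest. So although cysteine synthase passed the test in the first step and not in the second, a difference between the steps was not shown.

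Ratios of 2 of these genes within a library do not depend on how libraries are scaled, and so give a view of the members that scaling cannot move. The log2 ratio of cyanoalanine synthase to cysteine synthase reads was -2.30, -2.30 and -2.63 at light 50. It was -2.33, -2.63 and -2.72 in the libraries of light 100, and -3.39, -3.44 and -3.84 in those of light 200. The libraries at light 200 all lay below the other 6, while those at light 100 and light 50 overlapped. The ratio differed by -1.15 between light 200 and light 50, by -1.0 between light 200 and light 100 and by -0.15 between light 100 and light 50. Over the 3 groups, an exact permutation test of all 1680 arrangements of the libraries gave p = 0.00714 (smallest possible 0.00357), or 0.0214 after adjustment over the 3 ratios. Without replicate 1 or 2 at light 50, or replicate 2 or 3 at light 100, the adjusted p of that exact test was 0.0536. In size, the ratio of cyanoalanine synthase to cysteine synthase transcript was lower at light 200 than at light 50 by a factor of 2.21. The exact test covers the 3 groups together and does not single out this pair.

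The log2 ratio of the sulfurtransferase to cysteine synthase averaged -0.05 ± 0.59 at light 50, -0.95 ± 0.37 at light 100 and -1.97 ± 1.02 at light 200 (SD, n = 3). The exact permutation test over the 3 groups gave p = 0.0464, and 0.0696 after adjustment, so this difference did not pass. Its values at light 200 were -2.63, -2.48 and -0.79, replicate 3 again standing apart, and without it the difference between light 200 and light 50 was -2.50 (exact permutation test, adjusted p = 0.0107). The log2 ratio of the sulfurtransferase to cyanoalanine synthase averaged 2.36 ± 0.44, 1.61 ± 0.42 and 1.59 ± 1.27 in the order of light (SD, n = 3), and its groups overlapped (exact permutation test, p = 0.461, likewise after adjustment). Between light 200 and light 100 this ratio differed by -0.02. A different fall of these 2 genes in that step was thus not shown, although only cyanoalanine synthase was called. In replicate 3 at light 200 that ratio was 3.06, the highest of all 9, against 0.76 and 0.96 in the other 2. Without that library the difference between light 200 and light 50 was -1.50 (exact permutation test, adjusted p = 0.0214). This library was singled out because its values stood apart, so the p-values without it are descriptions and not tests.

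**Figure D3:**
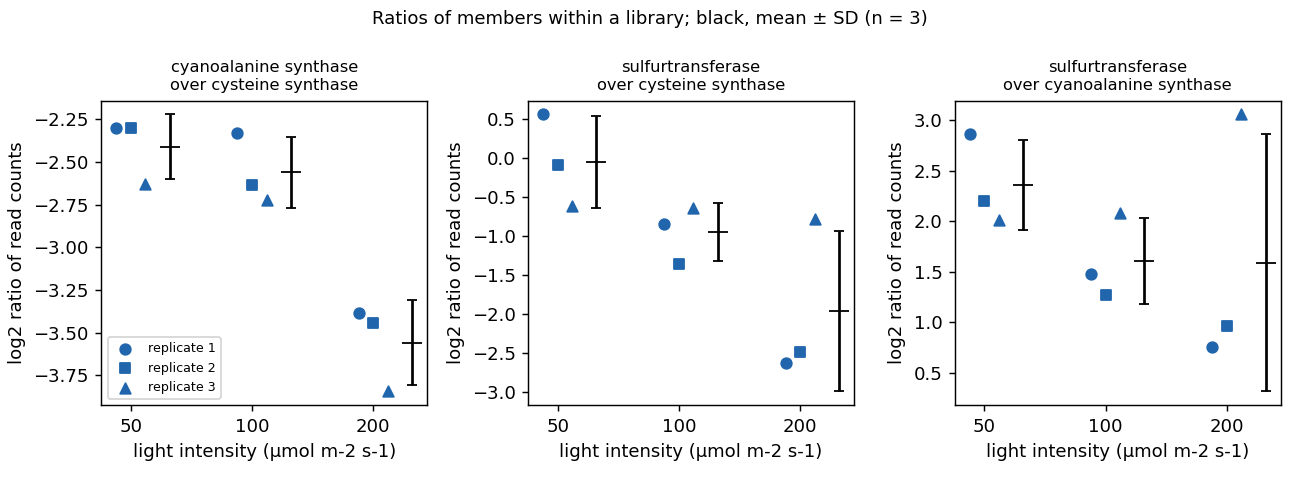
Log2 ratio of the read counts of each pair of the 3 genes within a library (vertical axes, which do not start at 0), by light intensity in µmol m-2 s-1 (horizontal axes). Points are libraries and black bars give the mean ± SD of 3 libraries. The ratio of cyanoalanine synthase to cysteine synthase is lowest in the 3 libraries at 200, at -3.39, -3.44 and -3.84, and replicate 3 at 200 stands apart in both ratios with the sulfurtransferase.

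The settings tried differ in what they do to each gene. Cyanoalanine synthase changed between light 200 and light 50 with a log2 value between -1.89 and -1.63 when single libraries were left out, and between light 200 and light 100 between -1.20 and -0.94. The sulfurtransferase ranged more widely, between -3.19 and -1.92 for light 200 against light 50 and between -1.71 and -0.45 for light 200 against light 100. Cysteine synthase was little moved by any library, between -0.67 and -0.48 for light 200 against light 50, but its small change is of the size by which scalings differ.

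**Figure D4:**
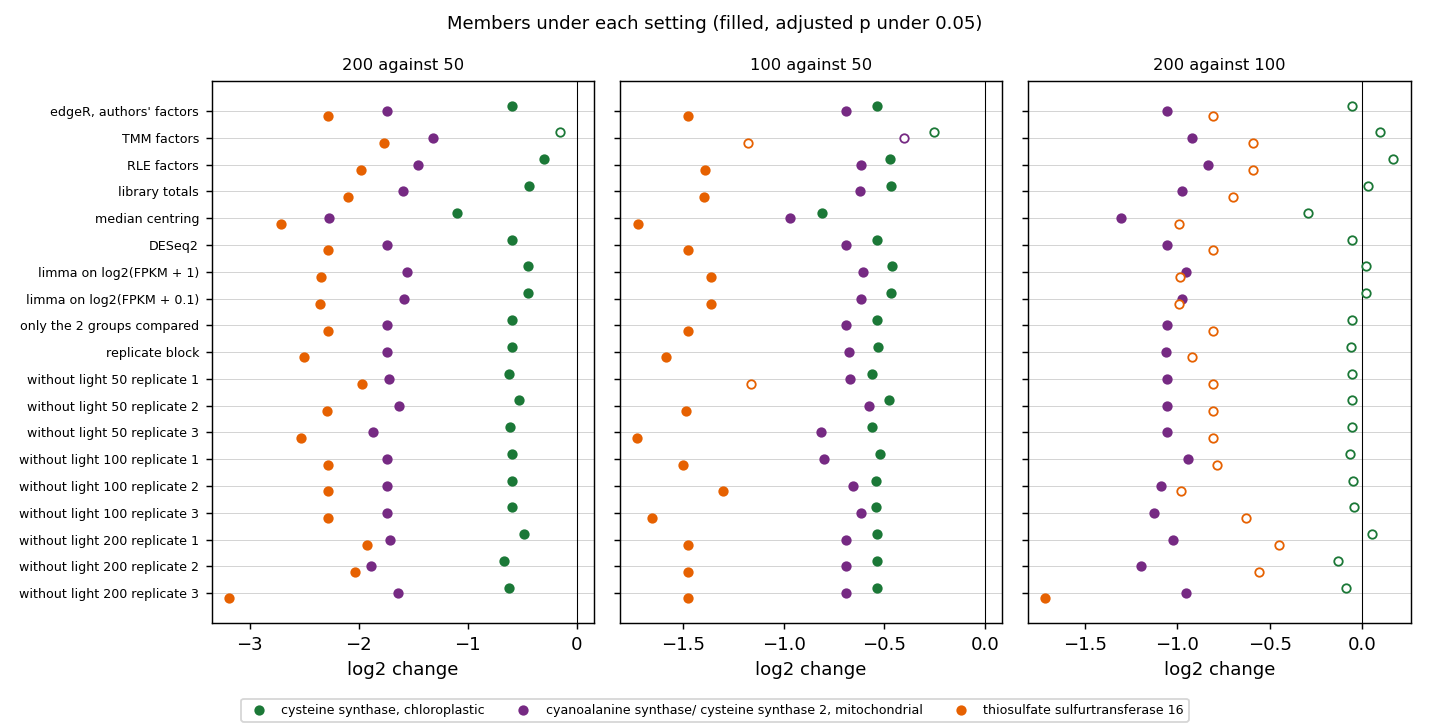
Log2 change of the 3 genes, higher over lower light (horizontal axes), under edgeR with the authors' size factors (top row) and each alternative scaling, tool or left-out library (rows), for each comparison of light intensities in µmol m-2 s-1 (panels). Filled points have an adjusted p under 0.05. Open points gather for TMM at 100 against 50, and the sulfurtransferase at 200 against 100 is filled in the row without replicate 3 at 200, at -1.71.

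Of the genes around these enzymes, lists for sulfate uptake and reduction, for cysteine and methionine, for thiols and glutathione, for cyanide release and use and for serine supply matched 4 others in the table. The lists for cysteine and methionine and for serine supply matched none. The authors chose the table, so a pathway gene outside it was not analysed here and may or may not have changed. At light 200 against light 50, 3 of the 4 rose and 1 fell, and the same counts passed at light 100 against light 50, while at light 200 against light 100 1 rose and 1 fell. Over the whole table, 47.2% of genes rose and 52.0% fell in the first of these comparisons, 42.3% and 40.7% in the next and 21.1% and 39.0% in the last. Since the table was chosen largely on the first, nothing about the lists is read from these counts.

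Sulfate transporter 3.1 (Nitab4.5_0000678g0050), on the plus strand of Nt22 from 108255424 to 108262829, belongs to a family of membrane carriers that move sulfate into cells or organelles. It had 19.4, 15.6 and 19.6 CPM at light 50, 25.8, 24.8 and 34.1 CPM at light 100 and 32.9, 29.3 and 27.3 CPM at light 200. Its libraries at light 200 and light 100 overlapped each other and lay above all at light 50, so it ran opposite to the 3 enzymes. The log2 change was 0.72 ± 0.18 (SE) for light 200 against light 50 (edgeR adjusted p = 0.00174), 0.64 ± 0.18 for light 100 against light 50 (edgeR adjusted p = 0.00804) and 0.08 ± 0.17 for light 200 against light 100 (edgeR adjusted p = 0.680). With median centring, which moved the median of all genes by -0.50 for light 200 against light 50, neither of the first 2 was called (0.22 and 0.39, edgeR adjusted p = 0.306 and 0.0914), and the sign of the last turned.

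Thioredoxin-like protein CXXS1 (Nitab4.5_0002345g0090), named for a redox motif with a single cysteine, was the other gene of the thiol list besides the sulfurtransferase. It had 76.4, 100.8 and 95.0 CPM at light 50, 60.3, 53.5 and 62.7 CPM at light 100 and 25.6, 40.2 and 52.1 CPM at light 200. The groups did not overlap, and its replicate 3 at light 200 was the highest of that group, as for the sulfurtransferase. It changed by -1.21 ± 0.22 (SE) for light 200 against light 50 (edgeR adjusted p = 0.000233), by -0.63 ± 0.22 for light 100 against light 50 (edgeR adjusted p = 0.0219) and by -0.58 ± 0.22 for light 200 against light 100 (edgeR adjusted p = 0.0385). The last 2 calls were lost under TMM (-0.35 and -0.41) and in limma on log2(FPKM + 1) (-0.55 for both), and the call for light 200 against light 100 also under RLE (-0.36) and with library totals (-0.49). Leaving out replicate 2 at light 50 or at light 100 also ended the call for light 100 against light 50 (-0.54 and -0.56), and leaving out replicate 1 or 3 at light 100 or replicate 1 or 2 at light 200 ended the other (-0.56, -0.53, -0.35 and -0.60).

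The genes of the cyanide list were 2 of the ethylene-forming type. 1-aminocyclopropane-1-carboxylate oxidase (Nitab4.5_0000091g0420), which makes ethylene and sets cyanide free, averaged 99.3 ± 15.8, 355.1 ± 30.2 and 500.4 ± 67.3 CPM at light 50, light 100 and light 200 (SD, n = 3). Its groups did not overlap, and it rose by 2.33 ± 0.17 (SE) on the log2 scale for light 200 against light 50 (edgeR adjusted p = 1.73e-07), by 1.84 ± 0.17 for light 100 against light 50 (edgeR adjusted p = 4.27e-06) and by 0.50 ± 0.16 for light 200 against light 100 (edgeR adjusted p = 0.0231). The last call was lost with median centring (0.26) and without replicate 1 or 3 at light 100 (0.47 and 0.45) or replicate 1 at light 200 (0.39). Cyanoalanine synthase, which uses cyanide, was highest in the group where this gene was lowest. Over the 123 genes, 52.0% were called lower and 47.2% higher at light 200 than at light 50. A link between the oxidase and cyanoalanine synthase was not tested.

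A second gene (Nitab4.5_0002015g0090) carries the name of an oxidase homolog, and the files' pathway annotation calls it a 2-oxoglutarate-dependent dioxygenase, so whether it makes ethylene is not known. It averaged 30.3 ± 10.7, 91.6 ± 33.5 and 77.7 ± 4.14 CPM in the order of light (SD, n = 3). It rose at light 200 against light 50 by 1.36 ± 0.28 (SE) on the log2 scale (edgeR adjusted p = 0.000445) and at light 100 against light 50 by 1.60 ± 0.28 (edgeR adjusted p = 0.000461), and its change at light 200 against light 100 was -0.24 ± 0.27 (edgeR adjusted p = 0.449).

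**Figure D5:**
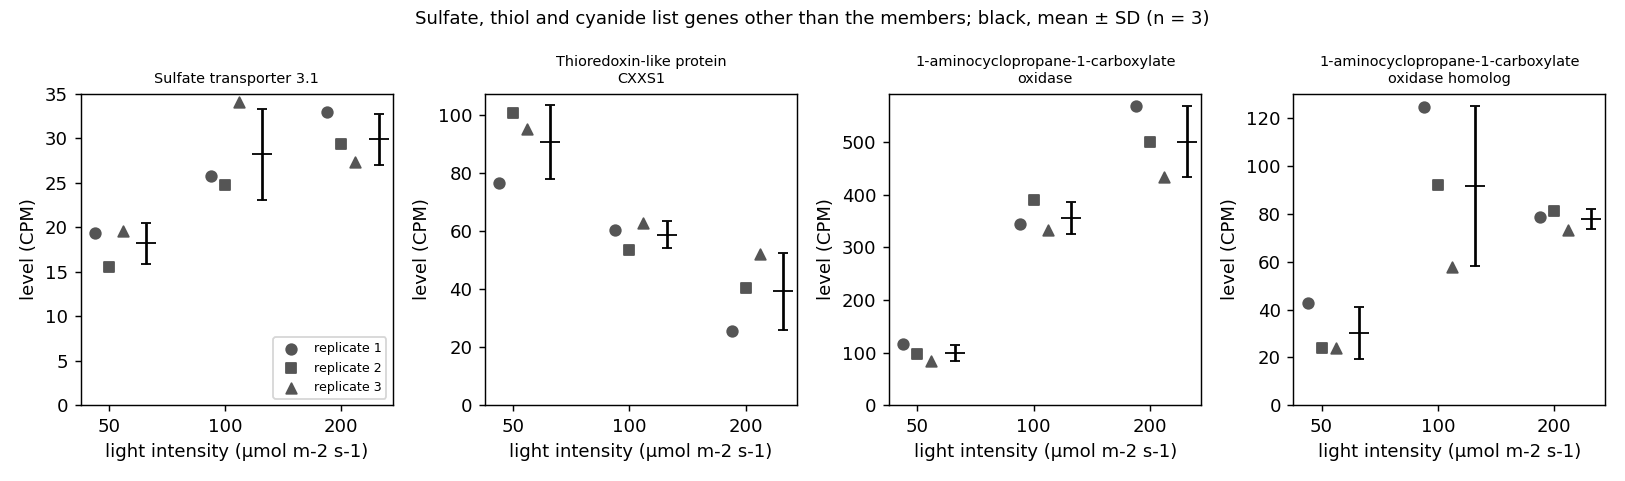
Level in CPM (vertical axes, from 0) of the 4 genes of the sulfate, thiol and cyanide lists other than the 3 enzymes, in each library, by light intensity in µmol m-2 s-1 (horizontal axes). Points are libraries, with a symbol for each replicate number, and black bars give the mean ± SD of 3 libraries. The sulfate transporter and both oxidase genes are lowest at 50, where CXXS1 is highest.

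The genes of the table most like each enzyme were ranked by Pearson's r of log2 CPM over the 9 libraries, given as a description, since the points share the libraries, their scaling and the 3 light groups. Cysteine synthase was most like a TLD domain-containing protein 1 (Nitab4.5_0001988g0020, r = 0.909), the tubulin beta-1 chain named above (Nitab4.5_0001951g0080, r = 0.902) and CP12-3 (Nitab4.5_0009514g0050, r = 0.893), whose family binds enzymes of the Calvin cycle. The median r over all other genes was 0.586. With the group means taken out, r fell to 0.247, 0.287 and 0.445, so most of this likeness lay between the groups.

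Cyanoalanine synthase was most like a beta-xylosidase 2 (Nitab4.5_0003089g0010, r = 0.979), an enzyme of cell wall sugars, the photosystem II 10 kDa polypeptide (Nitab4.5_0000313g0040, r = 0.969) and the subtilisin-like protease SBT1.9 (Nitab4.5_0002388g0010, r = 0.965), with a median of 0.703 over all others. With the group means taken out, the values were 0.713, 0.624 and 0.520. The sulfurtransferase was most like nicotinamidase 2 (Nitab4.5_0000069g0350, r = 0.962), which turns nicotinamide into nicotinic acid, ERD4 (Nitab4.5_0000315g0120, r = 0.954) and catalase 1 (Nitab4.5_0000407g0130, r = 0.944), which breaks down hydrogen peroxide, with a median of 0.533 over all others. With the group means taken out these stayed at 0.887, 0.844 and 0.883. These values follow in part from the choice, because the 3 genes were picked by r over the same libraries. Replicate 3 at light 200 was the highest of its group for the sulfurtransferase and for each of these 3 genes.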

How the data were processed

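The labels' protocols name the NEBNext Ultra RNA kit, and CASAVA 1.7, HISAT and HTSeq stand in the submitters' processing notes with no role given. Per the file headers, the table holds the authors' read counts and FPKM per library and, for each pair of groups, their mean normalised counts, log2 fold changes and p-values, raw and adjusted. Signs were turned where needed so that every deposited log2 value reads higher over lower light. The authors' deposited FPKM gave library totals (relative error at most 1.03e-09), and the deposited mean normalised counts gave their size factors (relative error at most 4.98e-10, differing by at most 0.19% between comparisons).

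The tests on counts used edgeR 4.0.16 (glmQLFit and glmQLFTest, two-sided; R 4.3.3) over 9 libraries with those factors, light group as the only factor, filterByExpr and Benjamini-Hochberg adjustment over 123 genes at 0.05. The SE is the log2 change divided by the root of F. The scripts were tested on simulated data. Alternatives were TMM, RLE, library totals, median centring, DESeq2 1.42.0, limma 3.58.1 on log2(FPKM + 1) and log2(FPKM + 0.1), a replicate block, only the groups compared, no filter and each library left out. The TMM, RLE and median-centring factors were computed from the counts of the 123 genes alone. Ratios used an exact permutation test.

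Named by rule were the 3 enzymes, every table gene on the pathway lists and the 3 genes most like each enzyme. Marker genes come from their lists, and genes named after their values were seen are said to be so. Genes and lists were chosen with earlier results of these data known. None of the 123 identifiers matched the RefSeq gene table, and no sequence is shown.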

Additional observations from a re-analysis of the deposited data

How the results depend on the processing

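For 200 against 50 µmol m-2 s-1, cyanoalanine synthase and the sulfurtransferase kept direction and call under every setting. Under TMM cysteine synthase lost its call (-0.16). Nothing is read from these calls, since 122 of the 123 genes carry the authors' mark of a change between the same groups. For 100 against 50, TMM ended the calls of cysteine synthase (-0.25), cyanoalanine synthase (-0.40) and the sulfurtransferase (-1.18). For 200 against 100, cyanoalanine synthase kept its call throughout, and cysteine synthase turned sign under TMM (0.096), RLE (0.17), library totals (0.031) and limma with a pseudocount of 1 or 0.1 (0.021 for both). Leaving out single libraries gave -0.67 to -0.48, -0.56 to -0.48 and -0.13 to 0.05 for cysteine synthase in these 3 comparisons and 0.40 to 0.58 for its step difference. It gave -1.89 to -1.63, -0.81 to -0.57, -1.20 to -0.94 and -0.51 to -0.14 for cyanoalanine synthase. It gave -3.19 to -1.92, -1.73 to -1.16, -1.71 to -0.45 and -0.24 to 1.03 for the sulfurtransferase, whose step difference was -0.24 without replicate 3 at 200. The cause was not tested. The log2 ratio to cysteine synthase, 200 minus 50, ranged from -1.26 to -1.0 for cyanoalanine synthase and from -2.50 to -1.58 for the sulfurtransferase, and the ratio of the sulfurtransferase to cyanoalanine synthase from -1.50 to -0.35. The first missed the threshold (adjusted p = 0.0536, exact permutation test) without replicate 1 or 2 at 50 (-1.09 for both) or replicate 2 or 3 at 100 (-1.15 for both).

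The numbers of genes called were 122, 102 and 74 for 200 against 50, 100 against 50 and 200 against 100, and 3 for the step difference. Without single libraries they ranged from 122 to 122, from 78 to 107, from 40 (without replicate 3 at 100; 46 without replicate 1 at 200) to 80, and from 1 (without replicate 2 at 100 or at 200) to 14 (without replicate 1 at 50; 5 without replicate 3 at 100). The step difference gave 23 under TMM, 5 with library totals and 9 with DESeq2. The replicate block gave 6 there. It changed no call of the 3 enzymes, with -2.51, -1.58 and -0.92 for the sulfurtransferase, -1.74, -0.68 and -1.06 for cyanoalanine synthase and -0.59, -0.53 and -0.06 for cysteine synthase. No label says that the shared replicate numbers pair the libraries, and pairing was neither shown nor excluded. The deviations of same-numbered libraries correlated at -0.44 to 0.55, over 0.1 in 4 of 9 pairs. Of the 9 libraries, 1 matched its own number best in both other groups. Among other genes, sulfate transporter 3.1 turned sign for 200 against 100 with median centring (-0.17) and without replicate 2 at 100 (-0.0033; 0.24 without replicate 3), the oxidase homolog without replicate 1 at 100 (0.053) and the TauE/SafE protein with median centring (-0.12). Library totals, tried for the likeness of genes after seeing the data, kept the 3 nearest genes of cyanoalanine synthase and of the sulfurtransferase at ranks 1 to 3 and put those of cysteine synthase at 2, 5 and 4.

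With 3 libraries a group, a spread like that of the sulfurtransferase limits what can be called. Counting error was at most 4.82%.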

Other observations

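A sulfite exporter TauE/SafE family protein 3 (Nitab4.5_0000052g0160), a membrane protein of a family linked to the export of sulfur compounds in bacteria, was in the table but on none of the lists, and is named after its values were seen. It averaged 99.6 ± 10.5, 136.5 ± 11.4 and 148.4 ± 20.4 CPM at 50, 100 and 200 µmol m-2 s-1 (SD, n = 3). It rose by 0.58 ± 0.16 (SE) on the log2 scale for 200 against 50 (edgeR adjusted p = 0.00317) and by 0.45 ± 0.16 for 100 against 50 (edgeR adjusted p = 0.0199), and changed by 0.12 ± 0.16 for 200 against 100 µmol m-2 s-1 (edgeR adjusted p = 0.498). With median centring neither rise was called, and the second was lost without replicate 1 or 2 at 50 or replicate 2 at 100.

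The table gene nearest to the sulfurtransferase was the serine/threonine-protein kinase STY17 (Nitab4.5_0001696g0100), on the opposite strand of Nt17 from 202683421 to 202701505, with 28069 bases between them. It too is named after its values were seen. It averaged 69.7 ± 5.20, 53.6 ± 3.99 and 45.4 ± 1.80 CPM in the order of light (SD, n = 3). Its log2 change was -0.62 ± 0.13 (SE) for 200 against 50 (edgeR adjusted p = 0.000689), -0.38 ± 0.13 for 100 against 50 (edgeR adjusted p = 0.0218) and -0.24 ± 0.13 for 200 against 100 µmol m-2 s-1 (edgeR adjusted p = 0.127). Under TMM none of these was called, and the second was lost without replicate 1 or 2 at 50 or replicate 2 at 100. The nearest table gene lay 8371298 bases from cysteine synthase and 5547539 bases from cyanoalanine synthase.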
